A study of Mus musculus with 6 samples.

Results

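The genes that make, sequester and receive transforming growth factor β (TGFβ) were followed through an epithelial-mesenchymal transition that TGFβ1 itself induced and through its reversal. They were chosen by name and comprise the 3 TGFβ ligands (*Tgfb1*, *Tgfb2* and *Tgfb3*), the 3 receptors that carry the Tgfbr name (*Tgfbr1*, *Tgfbr2* and *Tgfbr3*) and the 4 latent TGFβ binding proteins (*Ltbp1*, *Ltbp2*, *Ltbp3* and *Ltbp4*). All 10 were found among the 17428 gene symbols of the deposited table, and all 10 passed the filter on low coverage. Whole-transcriptome sequencing had been run on 2 biological replicates of each of 3 stages of EpH4, a single, non-tumour mouse mammary epithelial cell line. The E cells were the untreated line in medium with serum and insulin, the M cells were E cells given TGFβ1 in the medium for 7 days, and the RE cells were M cultures returned to normal medium for another 4 days. The labels name no genetic change in any group and give no time in culture for the E cells, so days in culture and TGFβ1 history cannot be told apart.

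TGFβ is secreted as an inactive dimer that stays wrapped in its own propeptide, and the latent binding proteins LTBP1, LTBP3 and, weakly, LTBP4 attach this complex covalently and anchor it in the extracellular matrix, whereas LTBP2 does not bind latent TGFβ. Integrins, thrombospondin and proteases free the ligand, which is held by the co-receptor betaglycan (*Tgfbr3*) and by the type II receptor (*Tgfbr2*), and the type II receptor then activates the type I receptor (*Tgfbr1*) to phosphorylate Smad proteins. In the mammary gland TGFβ restrains epithelial growth and is a known inducer of epithelial-mesenchymal transition. The TGFβ1 added to the M cells was a protein, so coverage of *Tgfb1* measures only the transcripts of the cells themselves.

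The deposited values behaved as sequenced bases summed per gene, not as read counts, and the libraries held between 35782513 and 47928557 reads' worth of 50 bases. Coverage was scaled to ppm of each library's total with TMM normalization (factors from 0.871 to 1.12), and log2(ppm + 0.1) was tested with limma in 1 fit of all 6 libraries and 13893 genes. A gene was called when its log2 fold change was above 1 in either direction and its Benjamini-Hochberg adjusted p over all genes was below 0.01. Log2 fold changes from this model are given with their standard errors (±) and these adjusted p-values. The E replicates differed more than the others (the log2 ratio of the 2 libraries had an SD over genes of 0.558 in E, 0.318 in M and 0.309 in RE). The 6 luminal epithelial markers listed summed to 1510 and 1860 ppm in the E libraries, 1300 and 1340 in the M libraries and 845 and 893 in the RE libraries. *Krt19* was at or under 0.162 ppm in every library, and *Epcam* (listed as *Tacstd1*) was present in all. Against E, *Epcam* was called lower in M (log2 fold change −1.26, adjusted p = 0.000621) and in RE (−1.23, adjusted p = 0.00153). *Cldn7* was also called lower in M (−1.89) and RE (−1.32), and *Krt18* in RE (−1.34). *Krt8* went up in M and down in RE without being called (0.67 and −0.66), and *Cdh1* was not called in either. Of the 6 fibroblast markers, 5 were in the table and *Thy1* was at 3 reads' worth or fewer in every library. They summed to 104 and 133 ppm in E, 550 and 581 in M and 865 and 978 in RE. *Ptprc*, *Kdr* and *Adipoq*, markers of leukocytes, endothelium and fat cells, were at 3 reads' worth or fewer in all 6 libraries. Other markers of these cell types were not silent. The endothelial marker *Cdh5* was at 0 in both E libraries, 2.33 and 2.07 ppm in M and 0.0423 and 0.0910 in RE. These RE values are close to 3 reads' worth. *Cdh5* was called higher in M than in E. The fat cell marker *Fabp4* was at 8.98 and 3.10 ppm in E, 0.0561 and 0.0243 in M and 2.22 and 1.87 in RE, and was called lower in M than in E. The 4 macrophage markers summed to at most 10.5 ppm in E and RE and to 33.1 and 36.8 ppm in M, where *Csf1r* was at 25.8 and 29.9 ppm and *Cd68* at 7.20 and 6.77 ppm. In such bulk RNA, a change in the share of cells that express a gene and a change in its RNA per cell cannot be told apart.

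**Figure D1:**
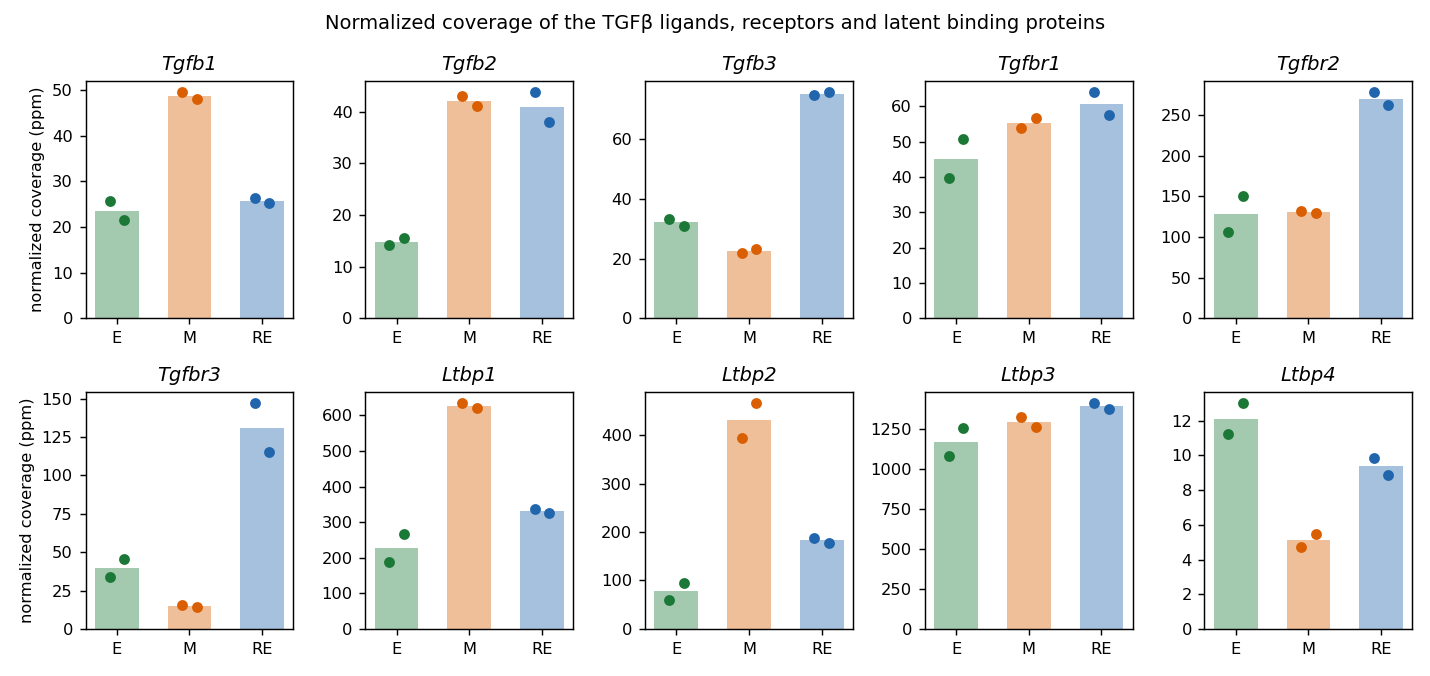
Normalized coverage in ppm (y axis, from 0, a separate scale for each gene) of the 10 genes in E, M and RE cells, with 1 point per library and bars at the mean of the 2 libraries. *Tgfb1*, *Ltbp1* and *Ltbp2* were highest in both M libraries, *Tgfb3*, *Tgfbr2* and *Tgfbr3* were highest in both RE libraries, and *Tgfb2* was about as high in RE as in M.

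Promoters of 8 members were listed in the RefSeq table of mouse promoters used here (GRCm38.p6), and those of *Tgfb3* and *Tgfbr3* were not used here. The 250 bases before the annotated start are printed for 4 genes with different courses: *Tgfb1*, called higher than in E in the M cells alone, *Tgfb2*, higher in both M and RE, *Tgfbr2*, higher in RE, and *Ltbp2*, the gene with the largest increase in M. Capitals mark CAGAC or its reverse complement GTCTG, the short box that Smad proteins bind. The *Tgfb1* window lies at chr7:25686752-25687001 on the + strand, that of *Tgfb2* at chr1:186705990-186706239 on the - strand, that of *Tgfbr2* at chr9:116175364-116175613 on the - strand and that of *Ltbp2* at chr12:84876492-84876741 on the - strand.
Tgfb1: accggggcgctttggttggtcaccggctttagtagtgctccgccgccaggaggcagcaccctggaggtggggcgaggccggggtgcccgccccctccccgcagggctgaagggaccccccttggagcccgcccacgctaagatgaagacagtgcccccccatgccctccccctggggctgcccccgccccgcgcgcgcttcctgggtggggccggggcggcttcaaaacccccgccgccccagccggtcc
Tgfb2: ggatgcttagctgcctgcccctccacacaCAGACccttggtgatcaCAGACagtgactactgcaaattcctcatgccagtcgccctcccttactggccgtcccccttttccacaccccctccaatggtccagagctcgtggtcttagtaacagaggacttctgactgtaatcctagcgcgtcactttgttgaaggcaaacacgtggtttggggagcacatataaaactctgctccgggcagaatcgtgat
Tgfbr2: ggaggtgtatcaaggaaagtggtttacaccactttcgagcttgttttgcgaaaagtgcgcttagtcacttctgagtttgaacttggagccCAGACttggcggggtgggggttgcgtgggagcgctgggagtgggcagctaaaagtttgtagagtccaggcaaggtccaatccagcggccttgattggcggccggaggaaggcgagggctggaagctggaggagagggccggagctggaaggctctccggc
Ltbp2: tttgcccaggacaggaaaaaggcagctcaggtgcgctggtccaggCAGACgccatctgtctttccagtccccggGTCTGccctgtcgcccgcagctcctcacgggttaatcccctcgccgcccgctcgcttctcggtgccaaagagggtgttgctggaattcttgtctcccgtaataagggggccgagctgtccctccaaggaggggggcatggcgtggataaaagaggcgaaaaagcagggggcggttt
The *Tgfb1* window held 0 CAGAC boxes on either strand and 5 matches to the GC box GGGCGG, and its GC content was 75.2%. The *Tgfb2* window held 2 CAGAC boxes and 0 GC boxes, and its GC content was 53.6%. It was also the only window of these 8 genes with the sequence of a TATA element, found once. Just 1 CAGAC box was found for *Tgfbr2*, and *Ltbp2* had 2, with 2 GC boxes. The 8 genes with a window had 12 windows in all, since some had more than 1. Of these genes, 6 had CAGAC in at least 1 window, 4 had GGGCGG, 1 had the element spelled TATAAA and 0 had the AP-1 box TGANTCA. Both strands were searched. Of all 32851 promoter windows of this length, 42.2% held CAGAC, 32.7% held GGGCGG, 12.4% held TATAAA and 6.75% held TGANTCA. These shares are per single window, whereas the counts above are per gene over all its windows, so they cannot be compared directly. These matches describe the letters of the windows only.

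The first comparison, E vs. M, asks what 7 days of TGFβ1 changed in the cells' own TGFβ system. Of the 10 genes, 4 were called higher in M (*Tgfb1*, *Tgfb2*, *Ltbp1* and *Ltbp2*) and 2 lower (*Tgfbr3* and *Ltbp4*), whereas of all genes tested 17.0% were called, 8.58% higher and 8.39% lower. The median log2 fold change of the 10 genes was 0.22, and that of all genes tested was 0.00135. Groups did not overlap for 6 genes that were above E in both M libraries and 3 that were below (over all genes, 35.5% and 35.0%).

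Among the ligands, *Tgfb1*, the isoform that had been added as protein, was at 25.7 and 21.5 ppm in the E libraries and at 49.5 and 48.1 ppm in the M libraries. Both M libraries were above both E libraries, and the gene was called (log2 fold change 1.05 ± 0.15, adjusted p = 0.00124). *Tgfb2*, which needs betaglycan to bind the type II receptor well, was at 14.2 and 15.4 ppm in E and 43.0 and 41.1 in M. It rose by 1.5 ± 0.14 on the log2 scale (adjusted p = 0.000223). *Tgfb3*, the third isoform, was at 33.4 and 31.1 ppm in E and 22.0 and 23.2 in M. Its M libraries lay below its E libraries, but the difference was under the fold threshold (−0.51 ± 0.13, adjusted p = 0.0165).

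Among the receptors, *Tgfbr3*, the betaglycan gene, was at 34.1 and 45.5 ppm in E and 15.6 and 14.3 ppm in M. It was called lower (log2 fold change −1.39 ± 0.19, adjusted p = 0.00118). *Tgfbr2*, the ligand-binding type II receptor, was at 106 and 150 ppm in E and 133 and 129 ppm in M, so both M libraries lay between the E libraries. Its log2 fold change was 0.05 with a 95% interval from −0.36 to 0.46, and it was negative with library totals (−0.25), with the trend on GC content and length removed (−0.39) and without the first E library (−0.20). *Tgfbr1*, the type I receptor kinase, was at 39.7 and 50.7 ppm in E and 53.9 and 56.7 in M. Its log2 fold change of 0.30 was not called (interval −0.07 to 0.67, adjusted p = 0.163), and its sign turned when the trend on GC content and length was removed (−0.06).

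Among the latent binding proteins, *Ltbp2* changed most. It was at 59.6 and 95.4 ppm in the E libraries and at 395 and 466 ppm in the M libraries, a log2 fold change of 2.51 ± 0.22 (adjusted p = 0.000158). *Ltbp1*, which anchors latent TGFβ to fibronectin and fibrillin matrix, was at 189 and 268 ppm in E and 635 and 621 in M (1.48 ± 0.18, adjusted p = 0.000688). *Ltbp4*, a partner of elastic fibres, went the other way. It was at 11.2 and 13.0 ppm in E and 4.75 and 5.48 in M (−1.23 ± 0.18, adjusted p = 0.00161). *Ltbp3* was at 1079 and 1254 ppm in E and 1322 and 1257 in M and was not called (0.15, interval −0.21 to 0.51), with the opposite sign under library totals (−0.15). *Tgfb2* and *Ltbp2* were called in E vs. M whichever of the 4 E and M libraries was left out. Without the first or the second M library the adjusted p by limma was 0.0225 and 0.0194 for *Tgfb1*, 0.0135 and 0.0181 for *Tgfbr3*, 0.0115 and 0.0104 for *Ltbp1* and 0.0245 and 0.0142 for *Ltbp4*. *Tgfb1* was also under the fold threshold without the second E library (0.90) and with library totals (0.75).

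**Figure D2:**
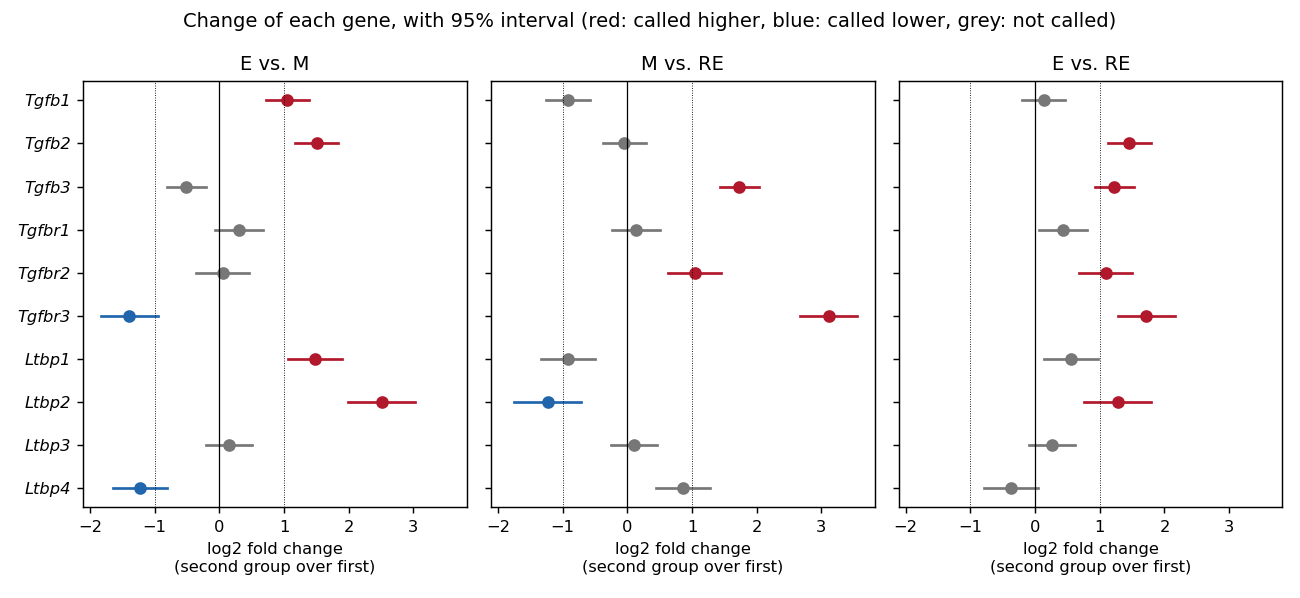
Log2 fold change of each gene (x axis, second group over first) with its 95% interval from limma in E vs. M, M vs. RE and E vs. RE. Solid lines mark 0 and dotted lines a log2 fold change of 1 in either direction, and *Tgfbr3* had both the largest increase from M to RE, 3.11, and a decrease of −1.39 from E to M.

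The second comparison, M vs. RE, asks what changed in the 4 days after TGFβ1 was taken away. *Tgfb3*, *Tgfbr2* and *Tgfbr3* were called higher in RE and *Ltbp2* lower, whereas of all genes tested 12.9% were called, 8.08% higher and 4.79% lower. The median log2 fold change was 0.12 over the 10 genes and −0.0172 over all genes tested. RE libraries were above M libraries for 6 genes and below for 3 (37.9% and 40.2% of all genes).

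The 3 ligands took 3 courses. *Tgfb3* was at 22.0 and 23.2 ppm in M and at 74.9 and 75.7 ppm in RE, a rise of 1.73 ± 0.13 on the log2 scale (adjusted p = 8.29e-05). It was called whichever of the 4 M and RE libraries was left out. *Tgfb2* was at 43.0 and 41.1 ppm in M and 43.7 and 38.0 in RE, and these overlapped. Its log2 fold change was −0.04 with a 95% interval from −0.38 to 0.29, and the sign turned with library totals (0.16) and without the second RE library (0.06). *Tgfb1* was at 26.3 and 25.2 ppm in RE, below both M libraries. Its log2 fold change of −0.92 ± 0.15 (adjusted p = 0.00285) was just under the fold threshold, and it was called when the trend on GC content and length was removed (−1.01) or at a fold threshold of 1.5.

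The receptors showed the largest difference of the family. *Tgfbr3* was at 15.6 and 14.3 ppm in the M libraries and at 147 and 115 ppm in the RE libraries. Its log2 fold change of 3.11 ± 0.19 (adjusted p = 3.66e-05) corresponds to 8.64-fold on the scale with the pseudocount. It was called whichever of the 4 M and RE libraries was left out. *Tgfbr2* was at 278 and 262 ppm in RE against 133 and 129 ppm in M (1.04 ± 0.18, adjusted p = 0.00381). This is close to the fold threshold, and it was not called when any 1 of the 4 libraries was left out (1.0006 to 1.0876, adjusted p from 0.0342 to 0.0517). *Tgfbr1* was at 63.9 and 57.5 ppm in RE and was not called (0.13, interval −0.23 to 0.50).

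*Ltbp2* was at 188 and 177 ppm in RE, below both M libraries and above both E libraries. It was called lower than in M (−1.23 ± 0.22, adjusted p = 0.00513), but not with library totals (−1.02, adjusted p = 0.0101), not without the filter (adjusted p = 0.0104) and not when any 1 of the 4 libraries was left out (−1.35 to −1.11, adjusted p from 0.0317 to 0.0542). *Ltbp1*, at 337 and 327 ppm in RE, was also below both M libraries, but its log2 fold change of −0.92 ± 0.18 (adjusted p = 0.0074) was under the fold threshold of 2 and past one of 1.5. *Ltbp4* was at 9.87 and 8.87 ppm in RE, above both M libraries, and was not called either (0.86, adjusted p = 0.00986) except with library totals (1.06) or at a fold threshold of 1.5. *Ltbp3* was at 1409 and 1374 ppm in RE (0.11, interval −0.25 to 0.47).

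The third comparison, E vs. RE, asks what was still different from never-treated cells. In RE, 5 genes were called higher (*Tgfb2*, *Tgfb3*, *Tgfbr2*, *Tgfbr3* and *Ltbp2*) and 0 lower. Over all genes tested 9.37% were called, 6.20% higher and 3.17% lower. With an unadjusted p below 0.05 no gene of the 10 was lower in RE by limma. The median log2 fold change was 0.83 over the 10 genes and 0.00787 over all genes tested, and both RE libraries were above both E libraries for 8 of the 10 (34.2% of all genes) and below them for 1 (32.5%). These values share the E libraries with E vs. M and the RE libraries with M vs. RE, so the 3 comparisons are not independent of each other.

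*Tgfb2* was called higher in RE than in E with a log2 fold change of 1.46 ± 0.14 (adjusted p = 0.000734), next to 1.5 in E vs. M. *Tgfb3* was 1.22 higher in RE than in E on the log2 scale (standard error 0.13, adjusted p = 0.000962), although it had not been called between E and M. *Tgfb1* was at 23.6 ± 2.98 ppm (SD, n = 2) in E and 25.8 ± 0.802 in RE, and its groups overlapped (0.13, interval −0.21 to 0.47). *Tgfbr3* exceeded E by 1.72 ± 0.19 on the log2 scale (adjusted p = 0.00114). *Tgfbr2* exceeded E by 1.09 ± 0.18 (adjusted p = 0.00438). It was not called with library totals (0.998), with the trend on GC content and length removed (0.61) or in a fit of E and RE alone (adjusted p = 0.0163). *Ltbp2* was 1.28 higher in RE than in E on the log2 scale (standard error 0.22, adjusted p = 0.00579), but was not called without the filter (adjusted p = 0.0117) or in a fit of E and RE alone (adjusted p = 0.0166).

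Differences from E were not called for *Ltbp1* (0.56, interval 0.14 to 0.98, adjusted p = 0.0502), *Tgfbr1* (0.43, interval 0.07 to 0.80), *Ltbp3* (0.26, interval −0.10 to 0.62) or *Ltbp4* (−0.37, interval −0.79 to 0.05). That of *Tgfbr1* turned to −0.03 when the trend on GC content and length was removed. Without the first or the second RE library, 0 of the 5 genes was called (adjusted p from 0.0215 to 0.0699 and from 0.0114 to 0.0448), and over all genes tested only 44 and 160 were called in these fits. Without the first E library *Tgfbr2* (0.84) and *Ltbp2* (0.94) were under the fold threshold. The sum of the fibroblast markers given above moved in the same direction as these 5 genes, although *Thy1* was at 0 in E and RE. *Pdgfra* was at 19.3 and 17.5 ppm in E, 29.9 and 33.2 in M and 92.2 and 76.1 in RE. The 4 basal or myoepithelial markers listed summed to 306 and 375 ppm in E, 716 and 814 in M and 495 and 497 in RE. Most of this sum was *Krt14*, at 314.8 and 223.3 ppm in E, 666.5 and 755.1 in M and 323.6 and 336 in RE. *Trp63* went the other way in M, at 59.0 and 81.8 ppm in E, 44.7 and 54.9 in M and 172.6 and 158.2 in RE. *Krt5* was at or under 0.478 ppm in every library. Of the 4 basal or myoepithelial markers, only *Trp63* was called between E and RE (1.25, adjusted p = 0.00346 by limma). The part of all these markers in the result was not tested.

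**Figure D3:**
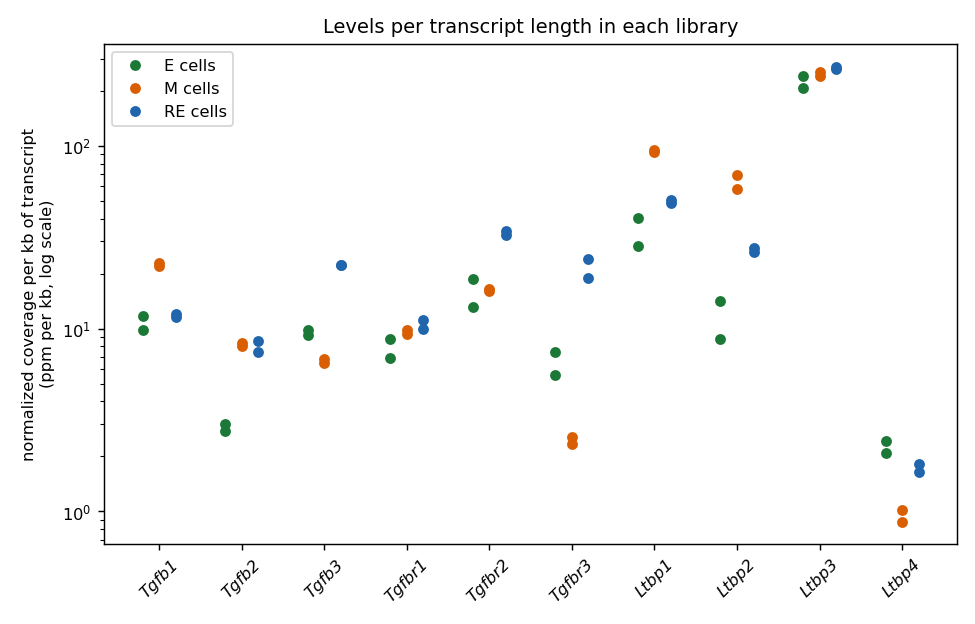
Normalized coverage per kb of transcript (ppm per kb, log scale) of the 10 genes, with 1 point per library, green for E, orange for M and blue for RE. *Ltbp3* lies above all the others in every library, between 208 and 271 ppm per kb, and *Ltbp4* is lowest in every library.

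To compare levels between genes, coverage was divided by the length of the longest protein-coding transcript of each gene in GENCODE M21, a newer annotation than the build used for mapping. Isoforms in use were not measured, so the order rests on that length. Each taken alone, exons of other annotated genes overlap between 2.14% (the antisense *Gm29491* with *Tgfb2*) and 9.34% (the antisense *D030025P21Rik* with *Ltbp2*) of the exon bases of *Ltbp2*, *Tgfb2*, *Tgfb3* and *Tgfbr3*. Coverage from an overlap cannot be assigned, since strand-aware counting is not stated. The gene that overlaps *Tgfbr3* (*Gm43422*, 4.54%) lies on the same strand, where strand-aware counting would not separate it. *Ltbp3*, whose product is an LTBP that attaches latent TGFβ covalently, was highest in every group, at 225 ± 23.9 ppm per kb (SD, n = 2) in E, 248 ± 8.80 in M and 268 ± 4.68 in RE. *Ltbp1* came next in every group (34.2 ± 8.38, 94.1 ± 1.53 and 49.7 ± 1.10 ppm per kb), and *Ltbp4* was last (2.25 ± 0.236, 0.95 ± 0.0967 and 1.74 ± 0.131). In E the genes between followed as *Tgfbr2* (15.9), *Ltbp2* (11.5), *Tgfb1* (10.8), *Tgfb3* (9.53), *Tgfbr1* (7.85), *Tgfbr3* (6.54) and *Tgfb2* (2.89 ppm per kb), and each neighbouring pair from *Tgfbr2* to *Tgfbr3* differed by less than the sum of their SDs. In M the order was *Ltbp2* (63.6), *Tgfb1* (22.4), *Tgfbr2* (16.2), *Tgfbr1* (9.60), *Tgfb2* (8.22), *Tgfb3* (6.67) and *Tgfbr3* (2.46 ppm per kb), and all neighbours differed by more than their spread. In RE it was *Tgfbr2* (33.4), *Ltbp2* (27.0), *Tgfb3* (22.3), *Tgfbr3* (21.5), *Tgfb1* (11.8), *Tgfbr1* (10.5) and *Tgfb2* (7.99 ppm per kb), where only *Tgfb3* and *Tgfbr3* could not be separated.

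**Figure D4:**
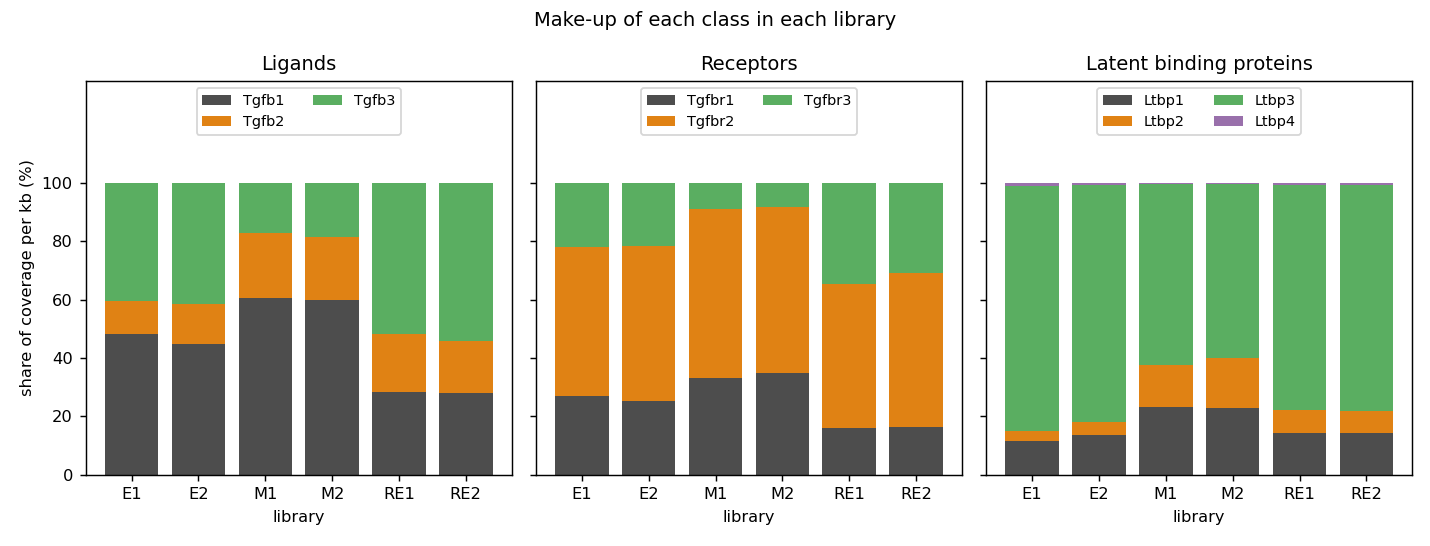
Share (%) of each gene in the summed coverage per kb of its class, for the ligands, receptors and latent binding proteins, with 1 stacked bar per library. *Tgfb1* makes up 60.5% and 59.8% of the ligand coverage in the M libraries and 28.3% and 28.0% in the RE libraries, where *Tgfb3* makes up 51.8% and 54.1%.

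The make-up of each class followed from these levels. Per length, *Tgfb1* held 48.3% and 44.8% of the ligand coverage in the E libraries, 60.5% and 59.8% in the M libraries and 28.3% and 28.0% in the RE libraries. *Tgfb3* held 40.4% and 41.6% in E, 17.2% and 18.5% in M and 51.8% and 54.1% in RE. On these lengths, the most covered ligand was *Tgfb1* in M and *Tgfb3* in RE. In E the levels of *Tgfb1* and *Tgfb3* differed by less than the sum of their SDs. The 3 ligands summed to 23.3 ppm per kb in E, 37.3 in M and 42.1 in RE. Of the receptor coverage, *Tgfbr3* held 21.9% and 21.4% in E, 9.08% and 8.34% in M and 34.7% and 30.8% in RE, while *Tgfbr2* held between 49.4% and 57.9% in all 6 libraries. The 3 receptors summed to 30.2 ppm per kb in E (25.6 and 34.8), 28.2 in M (28.3 and 28.2) and 65.4 in RE (69.7 and 61.2). Both M libraries thus lay between the E libraries. *Ltbp2* held 3.57% and 4.73% of the coverage of latent binding proteins in E, 14.2% and 17.0% in M and 7.91% and 7.67% in RE. Shares were given as descriptions and not tested.

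**Figure D5:**
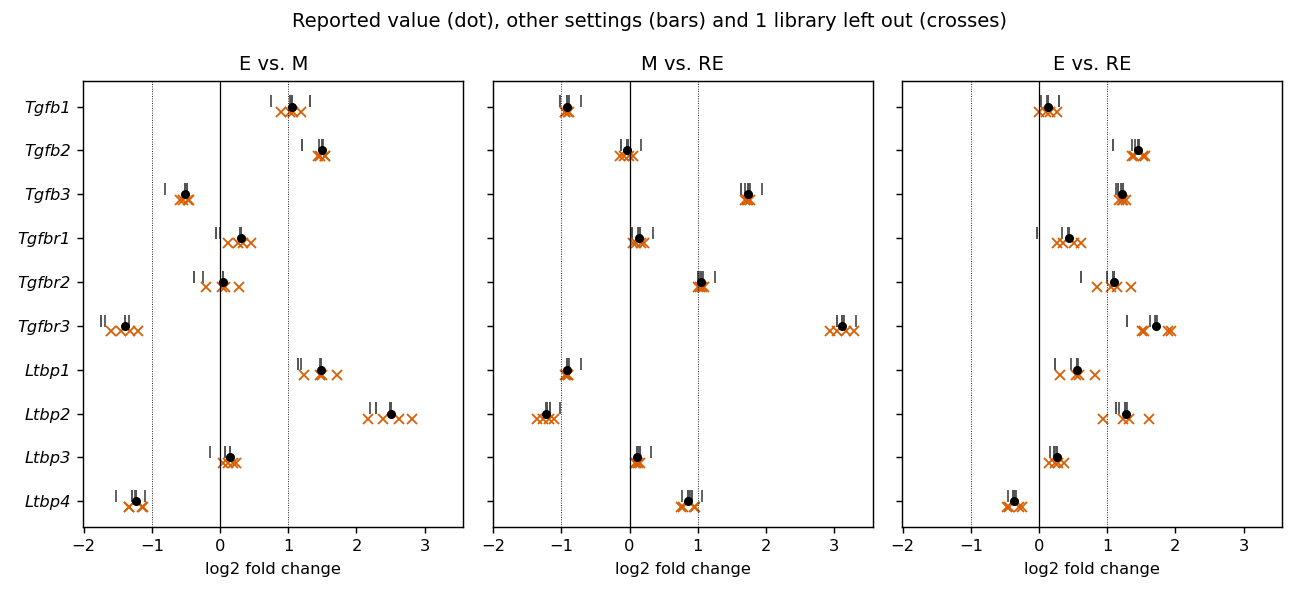
Log2 fold change (x axis) of each gene in the 3 comparisons as reported (black dots), under the other settings (grey bars) and with 1 library left out (orange crosses). Dotted lines mark the fold threshold, and the values of *Tgfb1* in E vs. M and *Tgfbr2* in E vs. RE lie on both sides of it.

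The other genes of the pathway were taken by list, in the order in which they act on the ligand, and *Fn1*, *Smad7*, *Skil* and *Pmepa1* stand in 2 lists each. For any direction with 0 calls, the count with an unadjusted p below 0.05 by limma is given beside it as unadjusted. In the order of the 3 comparisons, the counts of each list stand against 17.0%, 12.9% and 9.37% of all genes tested that were called, and its medians against all-gene medians of 0.00135, −0.0172 and 0.00787. Of 21 genes that activate latent TGFβ or anchor it, 19 were in the table and 18 were tested. In M, 13 were called higher and 1 (*Tgm2*, a crosslinking transglutaminase) lower than in E, 3 higher and 8 lower in RE than in M, and 6 higher and 0 lower in RE than in E (2 lower unadjusted). Median log2 fold changes were 1.79, −0.98 and 0.77. *Mmp9*, a gelatinase that can release TGFβ, was at 1.42 and 1.74 ppm in E, 966 and 866 in M and 1.26 and 1.98 in RE. *Itgav*, the αv chain of the integrins that pull on latent TGFβ, was at 49.4 and 87.8 ppm in E, 610 and 607 in M and 211 and 196 in RE, and was called in all 3 comparisons (3.21, −1.58 and 1.62). *Itgb3*, a partner chain of αv, was at 3 reads' worth or fewer in both E libraries, so its mean of 11.1 ppm in M was at least 143-fold higher. In RE it was at 0.0838 and 0.0678 ppm, close to 3 reads' worth (0.0635 and 0.0683 ppm in these libraries). *Fbn1*, a microfibril component to which LTBPs bind, was called higher in M (3.16, adjusted p = 0.000334) and in RE (1.83, adjusted p = 0.00647) than in E. *Fn1*, fibronectin, a matrix protein that holds LTBP1, was called higher in M than in E (2.35, adjusted p = 0.00184). It was not called in E vs. RE (1.63, adjusted p = 0.0135) or in M vs. RE (−0.72, adjusted p = 0.167). Both RE libraries (11510 and 10500 ppm) were above both E libraries (2379 and 5276 ppm). Outside the rule for named genes and chosen after its values were seen, *Itgb8*, another partner of αv, was at 1.33 and 2.72 ppm in E, 2.10 and 3.30 in M and 19.8 and 11.7 in RE, and was called against both (2.93 and 2.49, adjusted p = 0.00241 and 0.0031). *Itgb6*, a further partner named outside that rule, went the other way in RE. It was at 11.9 and 21.1 ppm in E, 27.4 and 32.1 in M and 8.2 and 9.1 in RE. It was called lower in RE than in M (−1.76, adjusted p = 0.00227 by limma) and not called against E (−0.86, adjusted p = 0.0443 by limma).

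All 18 other receptors, co-receptors and receptor regulators were tested. Of these, 8 were called higher in M than in E and 0 lower (0 unadjusted), 2 were called lower and 0 higher in RE than in M (1 higher unadjusted), and 4 were called higher and 0 lower in RE than in E (0 unadjusted). The median log2 fold changes of this list were 0.80, −0.27 and 0.44, and its 2 calls of 18 in M vs. RE are a share near the 12.9% of all genes. *Nrp1*, a neuropilin that binds TGFβ, was at 42.1 and 48.9 ppm in E, 169 and 175 in M and 177 and 151 in RE (1.92 in E vs. M and 1.85 in E vs. RE, adjusted p = 7.8e-05 and 0.000382). *Cd109*, a membrane-anchored antagonist of TGFβ receptors, had log2 fold changes of 2.04 in E vs. M and 1.72 in E vs. RE (adjusted p = 6.6e-05 and 0.000493), and neither gene was called in M vs. RE. *Eng*, endoglin and the closest relative of betaglycan, was at 114 and 126 ppm in E, 411 and 416 in M and 224 and 234 in RE. It was called higher in M (1.79, adjusted p = 6.15e-05), opposite to *Tgfbr3*, and not called in M vs. RE (−0.85, adjusted p = 0.00209) or E vs. RE (0.93, adjusted p = 0.00227). *Acvrl1*, the alternative type I receptor ALK1, was at 3 reads' worth or fewer in E and at 1.31 and 1.18 ppm in M, at least 16.0-fold higher.

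Of 10 Smad transducers and feedback genes, 2 were called higher and 0 lower in M than in E (0 unadjusted), 3 lower and 0 higher in RE than in M (2 higher unadjusted), and 0 in E vs. RE, where 0 had an adjusted p below 0.01 by limma and 5 had an unadjusted p below 0.05. The 2 calls of 10 in E vs. M are a share near the 17.0% of all genes. Median log2 fold changes were 0.56, −0.19 and 0.29. *Skil*, a Smad co-repressor, was at 48.9 and 74.7 ppm in E, 264 and 273 in M and 91.2 and 93.2 in RE (2.15 in E vs. M and −1.54 in M vs. RE, adjusted p = 0.000186 and 0.00109). *Pmepa1*, a feedback inhibitor of Smad activation, was called in the same directions (1.48 and −1.70, adjusted p = 0.000258 and 0.000153). *Smad7*, the inhibitory Smad, was at 24.6 and 27.3 ppm in E, 38.1 and 45.6 in M and 13.8 and 18.0 in RE. It was called in M vs. RE (−1.40, adjusted p = 0.00114) and not in E vs. M (0.69, adjusted p = 0.0196).

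Of 7 soluble proteins that bind TGFβ, 5 were in the table and tested. In M, 1 was called higher (*Fmod*) and 1 lower (*Dcn*) than in E, 2 higher (*Dcn* and *Bgn*) and 1 lower (*Fmod*) in RE than in M, and 3 higher and 0 lower in RE than in E (0 unadjusted). Median log2 fold changes were 0.18, 0.09 and 2.27. *Bgn*, biglycan, was at 4.67 and 4.81 ppm in E, 7.45 and 6.93 in M and 24.7 and 21.8 in RE (2.27 in E vs. RE, adjusted p = 0.000334). *Dcn*, decorin and also one of the fibroblast markers, was at 3 reads' worth or fewer in M, and its mean of 2.77 ppm in RE was at least 38.0-fold higher. *Fmod*, fibromodulin, was at 0 in both E libraries and at 3.31 and 7.40 ppm in M, at least 68.6-fold higher.

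Of 11 genes known to be induced by TGFβ, 10 were called higher and 0 lower in M than in E (0 unadjusted), 9 lower and 0 higher in RE than in M (0 unadjusted), and 3 higher and 1 lower (*Ctgf*) in RE than in E. Median log2 fold changes were 2.35, −1.70 and 0.61. *Tnc*, tenascin C, was at 58.7 and 115 ppm in E, 13040 and 13410 in M and 223 and 264 in RE, and stayed above E (1.56, adjusted p = 0.00713). *Acta2*, smooth muscle actin, was likewise called in E vs. RE (2.95, adjusted p = 0.00133), as was *Col1a1* (2.86, adjusted p = 0.000223).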

How the data were processed

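Total RNA of EpH4 cells was sequenced on an Illumina Genome Analyzer, and per the study's methods uniquely mapped reads were aligned to NCBI-m37 with Bowtie and TopHat2 (versions not given in the sources used here). The authors deposited 1 table of coverage per gene for the 6 libraries. The values are treated as coverage, that is sequenced bases summed per gene, since between 44.8% and 48.4% of the values from 1 to 400 are multiples of 50, so the count test named in the study's methods (edgeR) was not used. Every value column belongs to a labelled library, with 0 columns left over. The extract protocol in the labels speaks of 3 biological replicas, whereas 2 libraries per stage were sequenced. The p-values rest on 1 spread per gene, pooled over the 3 stages and moderated by limma towards a trend over all genes. The spread of the E libraries thus enters the p-values of M vs. RE too. No other depth is known: the totals range from 1789125650 to 2396427835 bases, and 3 reads' worth, 150 bases, is used as the floor (0.0635 to 0.0781 ppm), which covers counting error only.

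Coverage was divided by TMM-scaled totals, log2(ppm + 0.1) was taken, and genes that reached 500 bases in 2 or more libraries were fitted in limma 3.58.1 (R 4.3.3) with an intensity trend, after tests on simulated data. Fold changes are on the scale with the pseudocount, which understates low genes, and are positive where the group named second is higher. Same-numbered replicates shared deviations unevenly (correlations 0.27 for E and M, 0.12 for M and RE, 0.058 for E and RE), so the numbers were not used as pairs. The 10 genes and all lists were chosen with earlier results of these data known. Besides the 10 genes, up to 4 tested genes of each pathway list were named by the largest log2 fold change, plus genes whose role the text needs. A gene that this rule names and a gene overlapping a member are not reported here. *Lrrc32*, *Nrros*, *Lum* and *A2m* of the lists were not in the table. Alternatives covered normalization, filter, pseudocount, thresholds, array weights, the samples fitted, a trend on GC content and length, a replicate block and each library left out. Promoter sequences are from RefSeq (GRCm38.p6) and transcript lengths from GENCODE M21. No coordinate was converted between builds.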

Additional observations from a re-analysis of the deposited data

How the results depend on the processing

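Of the log2 fold changes of the 10 genes recomputed under the alternatives, 455 kept their direction and their side of the threshold, 38 were no longer called, 6 were newly called and 11 changed sign. The 11 with the opposite sign were not called in either case: *Tgfbr2* (−0.25) and *Ltbp3* (−0.15) in E vs. M and *Tgfb2* (0.16) in M vs. RE with library totals, *Tgfbr1* (−0.059) and *Tgfbr2* (−0.39) in E vs. M and *Tgfbr1* (−0.027) in E vs. RE with the trend on GC content and length removed, both with and without the replicate block, *Tgfbr2* in E vs. M without the first E library (0.27 without the second, −0.20 without the first), and *Tgfb2* in M vs. RE without the second RE library (−0.14 without the first, 0.057 without the second). With library totals the all-gene medians on the log2 scale were −0.289, 0.18 and −0.0825 in the 3 comparisons, against 0.00135, −0.0172 and 0.00787 as reported, by construction of the scaling. The 1 gene called lower in M vs. RE became 0 with library totals or no filter, 2 with the GC content and length trend removed (2 with the replicate block added) and 3 at a fold threshold of 1.5. The 5 genes higher in E vs. RE became 3 with only E and RE fitted, where calls over all genes went from 1302 to 697. They became 4 with library totals, no filter or the GC content and length trend removed (4 with the replicate block added). The 4 genes higher in E vs. M became 3 with library totals. M vs. RE kept 3 genes higher and 1 lower with only M and RE fitted, where calls over all genes went from 1789 to 2324. With 1 library left out, E vs. M had 2 to 4 genes called higher and 0 to 2 lower, M vs. RE 2 in each fit higher and 0 to 0 lower, and E vs. RE 0 to 5 higher. Those fits leave 1 stage with a lone library, assumed to vary like the others. The replicate block left the calls at 4 higher and 2 lower, 3 and 1, and 5 and 0. GC content and length were known for 93.4% of genes tested. Beyond the scaling, the cause of these differences was not tested. Groups of 2 libraries per stage and unknown read counts limit the precision.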

Other observations

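For each of the 8 genes called in at least 1 comparison, the genes with the most similar course over the 6 libraries were sought among 10095 candidates, by the root mean square difference of log2 values after centring each gene. The nearest was *Reep5* for *Tgfb1* (0.0406), *Chm* for *Tgfb2* (0.0521), *Clip4* for *Tgfb3* (0.0847), *Ptprg* for *Tgfbr2* (0.0505), *Foxred2* for *Tgfbr3* (0.12), *Rab11fip2* for *Ltbp1* (0.0459), *Angptl2* for *Ltbp2* (0.121) and *Sfi1* for *Ltbp4* (0.0867). These are descriptions over 6 libraries that share their depth and group, chosen from many candidates. The nearest gene of each of these 8 was not one of the 10.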
